A study of Homo sapiens with 9 samples.

Results

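The transcripts described here are MUC1, SYNC, MYO7B, PLAAT2, NEURL1 and MIR503HG, 6 of the 62703 genes in a table of transcript abundances from human cells labelled HepG2, a liver carcinoma line. They were chosen by symbol because their values in the same libraries were much lower after curcumin than with palmitic acid alone. Each symbol matched a row of the table, and all 6 were among the 13443 genes that averaged 1 TPM or more (a unit of transcript abundance in which reads are divided by gene length and every library has the same total). The levels against palmitic acid alone are therefore a description, and no test of that difference is given for these genes.

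All cells had first received palmitic acid, a saturated fatty acid, at 750 µM for 24 h. The 3 groups of 3 libraries then differed as follows: curcumin at 20 µM together with CuCl2 at 5 µM for 12 h (curcumin with CuCl2), curcumin at 20 µM for 12 h (curcumin), and no further addition (palmitic acid alone). Curcumin is the yellow phenol of turmeric, and CuCl2 supplies copper ions. The labels give no vehicle, no cells without palmitic acid and no CuCl2 without curcumin, and they do not say whether cells on palmitic acid alone were kept for the further 12 h, so the added compounds and the added time cannot be told apart.

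The 6 genes belong to unrelated families. MUC1 encodes a transmembrane mucin of apical epithelial surfaces, whose outer part is a tandem repeat carrying dense O-linked sugars and whose short cytoplasmic tail binds signalling proteins such as beta-catenin. SYNC encodes syncoilin, an intermediate filament protein that binds alpha-dystrobrevin and desmin in muscle. MYO7B encodes an unconventional myosin that anchors the adhesion complex linking the tips of intestinal and renal microvilli. PLAAT2 encodes a phospholipase and acyltransferase that can move a fatty acyl chain from a phospholipid to another lipid. NEURL1 encodes a ubiquitin ligase of the Neuralized family, which in Drosophila marks Notch ligands for endocytosis. MIR503HG is a long noncoding RNA from the X-linked locus that also holds the microRNA genes MIR424 and MIR503.

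In GENCODE release 29 on GRCh38, MUC1 lies on the minus strand at chr1:155185824-155192916 and has 29 annotated transcripts of 177 to 4170 bases. Its longest transcript holds a 60-base coding unit in 19 exact copies between bases 534 and 2894. That stretch takes up 56.6% of the transcript and also holds sequence other than these exact copies. The unit is shown because it is the repeat that makes the protein a mucin and because it adds to the length of the transcripts that hold it. Whether such transcripts entered the length behind the deposited MUC1 values is not known.
MUC1 repeat unit: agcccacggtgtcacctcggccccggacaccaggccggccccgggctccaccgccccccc
The unit is 81.7% G or C, and 3 of the 29 annotated transcripts hold at least 1 exact copy. TPM is per length, so the MUC1 level depends on which transcripts its reads were assigned to, and how that division differed between libraries was not tested.

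SYNC lies at chr1:32680360-32703596 on the minus strand, MYO7B at chr2:127535802-127637729 on the plus strand, PLAAT2 (annotated there under its older symbol HRASLS2) at chr11:63552770-63563383 on the minus strand, and NEURL1 at chr10:103493979-103592552 on the plus strand. MIR503HG lies at chrX:134543337-134546632 on the minus strand. The MIR503 hairpin falls inside the MIR503HG gene but in none of its annotated exons, whereas the MIR424 hairpin reaches across the start of MIR503HG. The mature 5p arms of both microRNAs, from RefSeq on GRCh38.p14, are shown with the seed, bases 2 to 8, in capitals.
hsa-miR-503-5p: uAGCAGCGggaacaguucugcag
hsa-miR-424-5p: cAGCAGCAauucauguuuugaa
The seeds share their first 6 bases, AGCAGC. The seed AGCAGCA occurs in 7 of 2370 human mature microRNAs of the table, among them miR-15a-5p, miR-15b-5p, miR-16-5p, miR-195-5p and miR-497-5p, whereas AGCAGCG occurs in miR-503-5p alone. These libraries were made from polyadenylated RNA, and the MIR503 and MIR424 rows were listed at 0 TPM in every library, so the mature microRNAs were not measured.

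RefSeq promoter windows, from 250 bases before to 50 bases after a gene's start on GRCh38.p14, were found for 5 of the 6 genes, with 7 windows in all. The window of MUC1, at chr1:155192866-155193165 on the minus strand, is shown because it holds the densest set of matches among those searched; capitals mark matches to the TATA box TATAAA, the GC box GGGCGG and the E-box CACCTG on the printed strand.
MUC1 promoter: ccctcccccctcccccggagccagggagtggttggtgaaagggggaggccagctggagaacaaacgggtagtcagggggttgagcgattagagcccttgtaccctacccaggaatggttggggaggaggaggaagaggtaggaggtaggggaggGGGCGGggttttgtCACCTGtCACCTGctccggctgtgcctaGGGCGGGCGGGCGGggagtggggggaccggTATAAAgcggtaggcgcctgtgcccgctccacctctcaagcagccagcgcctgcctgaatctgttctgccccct
It holds 1 match to the TATA box, 24 bases before this start, 4 matches to the GC box, 3 of them overlapping, and 2 matches to the E-box, a form bound by ZEB and SNAI repressors. A second annotated start of MUC1 lies 6 bases away and its window holds the same matches. The window of MIR503HG, at chrX:134546581-134546880 on the minus strand, is shown because it contains the whole of miR-424-5p, in capitals.
MIR503HG promoter: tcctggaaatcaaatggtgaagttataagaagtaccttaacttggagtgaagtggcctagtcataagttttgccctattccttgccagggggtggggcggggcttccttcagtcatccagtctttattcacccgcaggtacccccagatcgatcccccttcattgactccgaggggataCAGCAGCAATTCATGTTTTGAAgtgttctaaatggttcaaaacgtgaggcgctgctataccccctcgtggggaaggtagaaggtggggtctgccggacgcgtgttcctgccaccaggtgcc

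Each motif was searched on both strands, and the share of all 35116 windows that hold it is given beside the count among the 7 windows. TATAAA was in 3 of 7 (11.5% of all windows), GGGCGG in 6 of 7 (45.0%) and CACCTG in 4 of 7 (20.6%). CATTCC, the TEAD site, was in 3 of 7 (14%), TGACNNNGC, the core of the antioxidant response element, in 1 of 7 (13.3%), and the NF-kB site in 1 of 7 (11.3%). TGANTCA, the AP-1 site, was in 0 of 7 (7.71%), and TTCNNNGAA, the STAT core, also in 0 of 7 (7.66%). Over the 14018 windows of genes kept for the test, the shares were 6.22% for TATAAA, 66.6% for GGGCGG, 18.2% for CACCTG, 11.4% for CATTCC, 14.8% for TGACNNNGC, 13.2% for the NF-kB site, 5.06% for TGANTCA and 6.05% for TTCNNNGAA. Windows of the same gene overlap in sequence for MUC1, so the 7 are not independent. The windows ranged from 52.3% G or C at MIR503HG to 75.0% at SYNC, against a median of 58.7% over all windows. A match is a description of letters and says nothing of binding.

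Before the levels, the libraries were examined for the labelled cell type. Of 18 hepatocyte markers, 17 averaged under 1 TPM and 6 (ALB, TTR, APOB, APOA2, APOH and FGB) were at 0 in every library. Their summed level was 7.99 to 8.60 TPM with curcumin and CuCl2, 7.20 to 10.2 TPM with curcumin and 8.47 to 9.51 TPM with palmitic acid alone. VTN, the only one of the 18 at 1 TPM or more, averaged 7.46 TPM and made up most of that sum. The other listed markers were thus absent or under 1 TPM, and the cells are called by their label only. Among 9 epithelial markers the keratins KRT7, KRT8 and KRT18 were abundant and 5 averaged under 1 TPM (KRT19, EPCAM, CDH1, CLDN4 and ESRP1). Mitochondrial genes held 10.7% to 11.8% of TPM with curcumin and CuCl2, 10.4% to 12.4% with curcumin and 10.1% to 13% with palmitic acid alone.

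**Figure D1:**
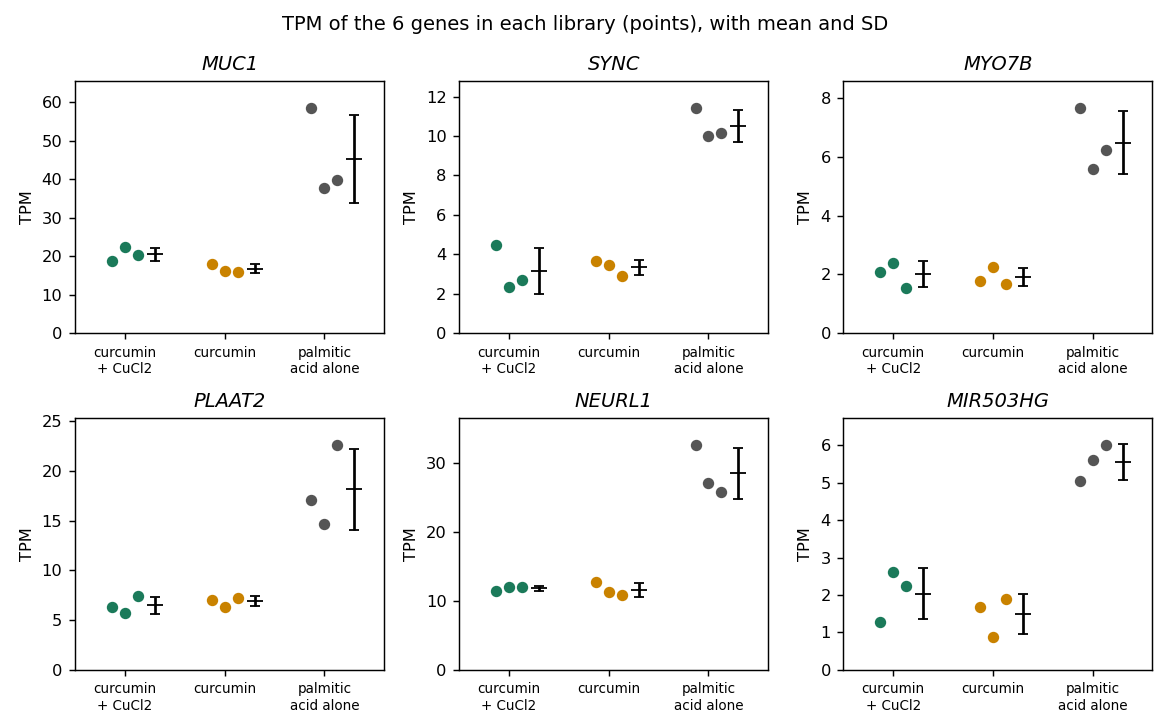
TPM (linear axes from 0) of the 6 genes in the 9 libraries: points are libraries in the order of their replicate numbers, the bar beside them is the mean with its SD of 3. For every gene the 3 libraries with palmitic acid alone lie above the 6 libraries with curcumin.

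MUC1 was the most abundant of the 6. It was at 18.75, 22.30 and 20.23 TPM in the libraries with curcumin and CuCl2, at 18.05, 16.01 and 16 TPM with curcumin, and at 58.51, 37.64 and 39.79 TPM with palmitic acid alone. No curcumin library reached the lowest library with palmitic acid alone, and replicate 1 of palmitic acid alone stood above the other two. Means were 20.4 ± 1.78 TPM with curcumin and CuCl2, 16.7 ± 1.18 TPM with curcumin and 45.3 ± 11.5 TPM with palmitic acid alone (here and below SD, n = 3 each). The curcumin mean was 36.8% and the curcumin with CuCl2 mean 45.1% of that with palmitic acid alone.

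NEURL1, the Neuralized ubiquitin ligase, came next in abundance. It was at 11.40, 11.97 and 12.04 TPM with curcumin and CuCl2, at 12.71, 11.31 and 10.79 TPM with curcumin, and at 32.65, 27.08 and 25.72 TPM with palmitic acid alone. The curcumin libraries of both kinds lay within 2 TPM of each other, well below every library with palmitic acid alone. Means were 11.8 ± 0.351 TPM with curcumin and CuCl2, 11.6 ± 0.993 TPM with curcumin and 28.5 ± 3.67 TPM with palmitic acid alone, and its coefficient of variation with curcumin and CuCl2, 2.97%, was the smallest of the 6.

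PLAAT2, the acyltransferase, was at 6.36, 5.73 and 7.42 TPM with curcumin and CuCl2, at 7.07, 6.35 and 7.27 TPM with curcumin, and at 17.10, 14.71 and 22.66 TPM with palmitic acid alone. Here replicate 3 of palmitic acid alone was the highest, and the curcumin groups interleaved. Means were 6.50 ± 0.854 TPM with curcumin and CuCl2, 6.90 ± 0.484 TPM with curcumin and 18.2 ± 4.08 TPM with palmitic acid alone.

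SYNC, the intermediate filament protein, was at 4.49, 2.32 and 2.69 TPM with curcumin and CuCl2, at 3.65, 3.44 and 2.89 TPM with curcumin, and at 11.42, 9.98 and 10.13 TPM with palmitic acid alone. Replicate 1 of curcumin with CuCl2 stood above the 5 other curcumin libraries and still below 5 TPM. Means were 3.17 ± 1.16 TPM with curcumin and CuCl2, 3.33 ± 0.392 TPM with curcumin and 10.5 ± 0.792 TPM with palmitic acid alone.

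MYO7B, the microvillus myosin, was at 2.08, 2.39 and 1.52 TPM with curcumin and CuCl2, at 1.77, 2.24 and 1.67 TPM with curcumin, and at 7.66, 5.57 and 6.22 TPM with palmitic acid alone. The curcumin groups covered the same range, and palmitic acid alone lay apart from both. Means were 2.0 ± 0.441 TPM with curcumin and CuCl2, 1.89 ± 0.304 TPM with curcumin and 6.48 ± 1.07 TPM with palmitic acid alone.

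MIR503HG, the noncoding RNA, was the lowest of the 6 in cells with palmitic acid alone. It was at 1.27, 2.61 and 2.23 TPM with curcumin and CuCl2, at 1.68, 0.88 and 1.89 TPM with curcumin, and at 5.05, 5.62 and 6.02 TPM with palmitic acid alone. Its curcumin libraries overlapped, and their relative spread was wide, with coefficients of variation of 33.9% with curcumin and CuCl2 and 35.9% with curcumin. Means were 2.04 ± 0.691 TPM with curcumin and CuCl2, 1.48 ± 0.533 TPM with curcumin and 5.56 ± 0.487 TPM with palmitic acid alone.

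By level per length the order with palmitic acid alone was MUC1, NEURL1, PLAAT2, SYNC, MYO7B and MIR503HG, and the ranges of neighbours in that order overlapped only for MYO7B and MIR503HG. With curcumin the order was the same and again only that last pair overlapped. With curcumin and CuCl2 the ranges of SYNC, MYO7B and MIR503HG all overlapped, so those 3 could not be ordered. No library was extreme for every gene: replicate 1 of palmitic acid alone was the highest of its group for 4 of the 6 genes, replicate 2 the lowest for 4 of 6, and replicate 3 of curcumin the lowest of its group for 4 of 6.

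With values taken as log2(TPM + 1), a scale that makes changes of low genes look smaller, the difference of curcumin from palmitic acid alone ran from -1.42 (MIR503HG, SE 0.22) to -1.22 (NEURL1, SE 0.11), with a median of -1.36 against -0.02 over all genes tested. The difference of curcumin with CuCl2 from palmitic acid alone ran from -1.50 (SYNC, SE 0.19) to -1.09 (MUC1, SE 0.16), with a median of -1.26 against -0.03 over all genes. For scale, the lowest 1% of all genes lay below -0.93 in the first of these comparisons and below -0.91 in the second. All 6 genes showed no overlap between groups in both comparisons, as did 8.61% of all genes in the downward direction with curcumin and 10.3% with curcumin and CuCl2. Since these values chose the genes, nothing is read from the count. Both comparisons share the palmitic acid libraries.

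**Figure D2:**
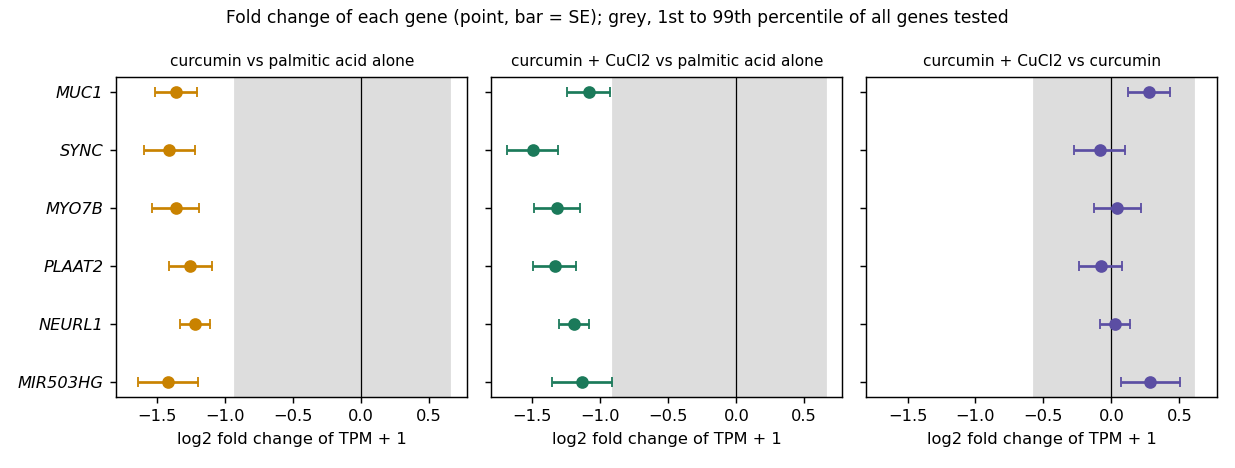
Log2 fold change of TPM + 1 of the 6 genes in the 3 comparisons; points are estimates, bars their SE, and the grey band spans the 1st to 99th percentile of all 13443 genes tested. Against palmitic acid alone the points lie between -1.50 and -1.09, whereas between the curcumin groups they lie between -0.09 and 0.29.

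The comparison of curcumin with CuCl2 against curcumin was the one that the choice of genes used least, and it shares libraries with the other comparisons. Genes chosen for low values in both curcumin groups may be favoured to differ little between them, so the test is not independent of the choice. The comparison asks whether adding copper changed the level of the 6 genes in curcumin-treated cells. No gene of the 6 passed the threshold, with an adjusted p of 1 for each in limma's test with Benjamini-Hochberg adjustment over 13443 genes. Over all genes 0 passed (0.00%), and 215 (1.60%) had an unadjusted p under 0.05.

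MUC1 was the only one of the 6 whose libraries did not overlap in that comparison. Its 3 libraries with curcumin and CuCl2 (18.75 TPM or more) all lay above its 3 libraries with curcumin (18.05 TPM or less), a lack of overlap seen in 6.24% of all genes in either direction. The difference was 0.28 on the log2 scale, with a 95% interval of -0.07 to 0.63 and an unadjusted p of 0.109 in limma's test. An exact two-sided permutation test gave p = 0.1, the smallest that 3 against 3 libraries allow. Libraries that do not overlap always give that value, so it adds nothing to the lack of overlap. The same permutation test gave p = 0.4 for MIR503HG, 0.8 for SYNC, 0.9 for MYO7B, 0.7 for PLAAT2 and 0.7 for NEURL1. MIR503HG differed by 0.29 (95% interval -0.21 to 0.78) with overlapping libraries. The other intervals were -0.51 to 0.34 for SYNC, -0.34 to 0.43 for MYO7B, -0.44 to 0.28 for PLAAT2 and -0.22 to 0.27 for NEURL1. These intervals leave room for changes of such sizes in either direction, and the estimates were positive for 4 of the 6 genes.

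The genes most like each of the 6 over the 9 libraries were found by the mean absolute difference of log2(TPM + 1) values centred on each gene's mean, where 0 is an identical profile. NEURL1 lay closest to IL6, the cytokine, at 0.06, to IFIT3, an interferon-induced gene, at 0.07, and to ALPP, placental alkaline phosphatase, at 0.09. IL6 was at 67.2 ± 3.13 TPM with curcumin and CuCl2, 64.0 ± 1.64 TPM with curcumin and 156 ± 13.1 TPM with palmitic acid alone. MUC1 lay closest to NEURL1 at 0.12, then to the phosphatase gene CTDSP1 at 0.13 and to ALPP at 0.14. Reads of ALPP may be shared with its near-identical relatives.

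PLAAT2 lay closest to IL32 and to the keratin gene KRT17, each at 0.12, and then to ALPP at 0.16. MIR503HG lay closest to KRT17 at 0.18 and IL32 at 0.20, followed by the homeobox gene HLX at 0.22. MYO7B lay at 0.14 from each of ANKRD1, IL6 and NEURL1, and SYNC at 0.16 from MYO7B, 0.17 from IL6 and 0.20 from NEURL1. KRT17 was at 329 ± 25.4 TPM with curcumin and CuCl2, 304 ± 40.6 TPM with curcumin and 749 ± 53.7 TPM with palmitic acid alone. Among the 15 pairs of the 6 genes the distance ran from 0.12 between MUC1 and NEURL1 to 0.36 between SYNC and MIR503HG. All profiles come from the same 9 libraries, so the distances describe these libraries only. Each profile includes the difference from palmitic acid alone for which the 6 genes were chosen. Other strongly falling genes therefore lie near them by construction, and nothing is read from which genes are close or from the distances among the 6.

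Other genes of the same families and pathways were examined as 9 lists, in which 104 genes besides the 6 reached a mean of 1 TPM. With curcumin 1 rose and 1 fell against palmitic acid alone, 1.92% of them, near the 1.96% called over all genes. With curcumin and CuCl2 against palmitic acid alone 1 fell, 0.962% against 0.900% called in that direction over all genes. Between the curcumin groups none of the 104 passed the threshold, and over all genes 0 did. The median of the 104 was -0.04 with curcumin, against -0.02 over all genes, and -0.06 with curcumin and CuCl2, against -0.03 over all genes.

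Of 18 other mucin genes, MUC20 alone reached 1 TPM. MUC20, also a transmembrane mucin, was at 1.83 ± 0.279 TPM with curcumin and CuCl2, 2.13 ± 0.0586 TPM with curcumin and 2.29 ± 0.592 TPM with palmitic acid alone, and its differences of -0.20 with curcumin and CuCl2 and -0.06 with curcumin did not pass the test. MUC6, a secreted mucin, averaged 0.957 TPM, and MUC15, MUC16 and MUC22 were at 0 throughout. MUC1 was therefore the only mucin of the list at more than 3 TPM in these cells.

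Mucin-type O-glycosylation enzymes, which add and extend the sugars on the MUC1 repeat, reached 1 TPM for 13 of 22 listed genes, and none passed the threshold in either comparison. GCNT3, which branches the core sugars, was at 9.61 ± 0.924 TPM with curcumin and CuCl2, 9.67 ± 0.475 TPM with curcumin and 6.57 ± 0.812 TPM with palmitic acid alone. Neither curcumin group of GCNT3 overlapped palmitic acid alone, and its differences were 0.49 with curcumin and CuCl2 (adjusted p = 0.0897) and 0.50 with curcumin (adjusted p = 0.0783). The medians of the list were 0.03 with curcumin and CuCl2 and 0.02 with curcumin.

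Of 14 listed partners and sheddases of MUC1, 12 reached 1 TPM and none passed the threshold. EGFR, a receptor kinase that binds the MUC1 tail, was at 66.1 ± 7.37 TPM with curcumin and CuCl2, 62.6 ± 16.1 TPM with curcumin and 107 ± 33.4 TPM with palmitic acid alone, with overlapping groups and differences of -0.64 with curcumin and CuCl2 and -0.74 with curcumin. ICAM1, an adhesion molecule that binds the MUC1 ectodomain, was at 3.40 ± 0.559 TPM with curcumin and CuCl2, 2.88 ± 0.0954 TPM with curcumin and 5.29 ± 0.789 TPM with palmitic acid alone, and its adjusted p was 0.0503 with curcumin and 0.135 with curcumin and CuCl2. JUP, the junctional relative of beta-catenin, differed by -0.41 with curcumin and CuCl2 (adjusted p = 0.0792) and by -0.45 with curcumin (adjusted p = 0.0565). These 3 were lower in mean in both treatments without passing the test. GSK3B, a kinase of the MUC1 tail, was at 77.70, 47.45 and 52.44 TPM with curcumin and CuCl2 and 152.34, 92.51 and 62.08 TPM with curcumin, against 78.81, 67.43 and 59.19 TPM with palmitic acid alone. Replicate 1 of curcumin stood above every other library. Between the curcumin groups GSK3B differed by -0.72, with an unadjusted 95% interval of -1.38 to -0.06, and it did not pass the threshold in any comparison.

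The microvillus list, around MYO7B, held 18 genes, of which 17 were found by symbol and 10 reached 1 TPM. Transcripts of the adhesion complex that MYO7B carries were scarce: USH1C averaged 0.278 TPM, CDHR2 0.117 TPM, CDHR5 0.0756 TPM and ANKS4B 0.00222 TPM. CALML4, the light chain, was the only listed partner of that complex above 1 TPM, and proteins were not measured. EPS8L2, an actin-binding adaptor found in mouse at the tips of stereocilia, fell in both comparisons. It was at 43.09, 49.07 and 46.68 TPM with curcumin and CuCl2, at 50.07, 44.99 and 46.68 TPM with curcumin, and at 71.36, 65.88 and 61.97 TPM with palmitic acid alone. The curcumin groups overlapped each other and neither reached palmitic acid alone. The changes were -0.51 with curcumin and CuCl2 (SE 0.08, adjusted p = 0.0204) and -0.48 with curcumin (SE 0.08, adjusted p = 0.0258).

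EPS8L2 kept its direction when any library was left out, but not always its call. With curcumin and CuCl2 the adjusted p was 0.0127 to 0.112, above the threshold without replicate 1 or 2 of palmitic acid alone or any replicate of curcumin with CuCl2. With curcumin it was 0.0148 to 0.110, under the threshold only without replicate 3 of palmitic acid alone or replicate 1 of curcumin with CuCl2. EZR, ezrin, the linker of microvillus actin to the membrane, was at 93.2 ± 5.69 TPM with curcumin and CuCl2, 93.1 ± 9.84 TPM with curcumin and 129 ± 22.8 TPM with palmitic acid alone, without passing the test. Of 20 other unconventional myosins 12 reached 1 TPM and none passed the threshold, with differences from -0.39 (MYO15B) to 0.30 (MYO18A) with curcumin.

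Around SYNC, 11 of 16 listed partners and dystrophin complex genes reached 1 TPM and none passed the threshold. DES, desmin, the filament partner of syncoilin in muscle, averaged 0.163 TPM. SYNM, another intermediate filament gene, was at 10.6 ± 1.16 TPM with curcumin and CuCl2, 11.7 ± 1.56 TPM with curcumin and 7.54 ± 1.25 TPM with palmitic acid alone, differences of 0.45 with curcumin and CuCl2 (adjusted p = 0.189) and 0.57 with curcumin (adjusted p = 0.0951), opposite in sign to SYNC. UTRN, the dystrophin relative, differed by -0.52 with curcumin and CuCl2 and by -0.50 with curcumin, with overlapping groups.

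Among genes of the PLAAT family and of N-acylethanolamine turnover, lipids that PLAAT enzymes help to make, 9 of 13 reached 1 TPM. GDE1, a glycerophosphodiesterase that releases N-acylethanolamines, rose with curcumin by 0.39 (SE 0.08, adjusted p = 0.0475). It was at 57.85, 61.67 and 62.51 TPM with curcumin and CuCl2, at 55.97, 64.40 and 65.38 TPM with curcumin, and at 49.14, 47.17 and 44.21 TPM with palmitic acid alone. Its libraries with curcumin of either kind lay above those with palmitic acid alone, and with CuCl2 the difference was 0.37 with an adjusted p of 0.0712. Leaving out any of the 9 libraries put the curcumin call above the threshold, at adjusted p values of 0.0525 to 0.195. NAAA, an amidase of the same lipids, was at 1.17 ± 0.178 TPM with curcumin and CuCl2, 0.673 ± 0.203 TPM with curcumin and 1.76 ± 0.490 TPM with palmitic acid alone, without passing the test. GDPD3, another phosphodiesterase of the list, differed by 0.65 with curcumin and CuCl2 and by 0.32 with curcumin, also without passing it.

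Around NEURL1, 19 of 29 Neuralized and Notch pathway genes reached 1 TPM and none passed the threshold. Their medians were -0.09 with curcumin and CuCl2 and -0.11 with curcumin. NEURL1B, the closest relative, differed by -0.18 with curcumin and CuCl2 and -0.05 with curcumin, and the receptor gene NOTCH2 by -0.28 with curcumin and CuCl2 and -0.34 with curcumin. HES1, a Notch target, was at 10.9 ± 1.07 TPM with curcumin and CuCl2, 10.4 ± 1.55 TPM with curcumin and 13.3 ± 0.778 TPM with palmitic acid alone, with adjusted p values of 0.407 with curcumin and CuCl2 and 0.270 with curcumin.

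At the MIR503HG locus none of 8 other listed genes reached 1 TPM, and the 6 microRNA rows among them were at 0 in every library. LINC00629 averaged 0.248 TPM and PLAC1 0.472 TPM. Of 19 reported targets of microRNAs with these seeds, 17 reached 1 TPM and none passed the threshold. CCND1, a cyclin, was at 16.1 ± 1.15 TPM with curcumin and CuCl2, 16.3 ± 1.89 TPM with curcumin and 19.5 ± 1.3 TPM with palmitic acid alone, whereas CCND3 was at 56.2 ± 2.28 TPM with curcumin and CuCl2, 55.9 ± 1.71 TPM with curcumin and 46.8 ± 3.83 TPM with palmitic acid alone. The targets thus included genes with means on either side of palmitic acid alone, with a list median of -0.10 with curcumin and CuCl2 and -0.04 with curcumin. IGF1R, a growth factor receptor, had the largest difference of the list, -0.51 with curcumin.

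The genes around the 6 on their chromosomes were examined next. Of 22 genes at 1 TPM or more whose start lies within 100000 bases of the start of one of them, none passed the threshold in any comparison, where 1.96% of all genes did with curcumin and 1.44% with curcumin and CuCl2. Their median difference was -0.08 with curcumin and CuCl2, within a range of -0.73 to 0.41, and -0.06 with curcumin, within a range of -0.76 to 0.59. MUC1 had 12 of these 22 neighbours.

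The neighbour of MUC1 on its upstream side, THBS3-AS1, starts 2088 bases away on the opposite strand, and it differed by -0.45 with curcumin and CuCl2 (adjusted p = 0.621) and -0.70 with curcumin (adjusted p = 0.385) at 1.41 TPM on average. KRTCAP2, 12349 bases away on the other side and transcribed in the same direction, was at 293 ± 15.5 TPM with curcumin and CuCl2, 312 ± 31.0 TPM with curcumin and 293 ± 51.4 TPM with palmitic acid alone. An overlapping gene on the same strand, AL713999.1, shares 1449 bases with MUC1 and averaged 0.197 TPM.

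SYNC shares 5852 bases with RBBP4, a histone-binding protein gene on the opposite strand. RBBP4 was at 75.38, 83.75 and 80.97 TPM with curcumin and CuCl2, at 71.60, 94.28 and 67.30 TPM with curcumin, and at 86.14, 69.42 and 56.46 TPM with palmitic acid alone. RBBP4 was thus several times more abundant than SYNC, with overlapping groups. Library preparation kept the strand, per the labels' protocols, but the strand setting of the counting is not given in the sources used here, so a share of reads from the partner in the SYNC values was not tested. The flanking gene ZBTB8OS, 29457 bases away on the same strand as SYNC, was at 87.5 ± 6.96 TPM with curcumin and CuCl2, 86.3 ± 7.76 TPM with curcumin and 94.5 ± 9.34 TPM with palmitic acid alone, with overlapping groups. KIAA1522, 38289 bases away on the opposite strand, was at 17.5 ± 0.940 TPM with curcumin and CuCl2, 17.9 ± 1.37 TPM with curcumin and 21.4 ± 2.21 TPM with palmitic acid alone. Neither curcumin group of KIAA1522 overlapped palmitic acid alone, and neither difference passed the threshold, at -0.27 with curcumin and CuCl2 (adjusted p = 0.270) and -0.24 with curcumin (adjusted p = 0.336).

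LIMS2, a focal adhesion adaptor gene that ends 652 bases from MYO7B on the opposite strand, fell with curcumin and CuCl2. It was at 4.05, 3.14 and 3.40 TPM with curcumin and CuCl2, at 3.77, 3.31 and 5.09 TPM with curcumin, and at 6.90, 6.10 and 7.32 TPM with palmitic acid alone. Neither curcumin group reached palmitic acid alone, and the differences were -0.78 with curcumin and CuCl2 (SE 0.16, adjusted p = 0.0496) and -0.63 with curcumin (SE 0.16, adjusted p = 0.0875). The first lost its call without any of the 9 libraries except replicate 2 or 3 of curcumin, with adjusted p values of 0.0487 to 0.198. On the other side of MYO7B, IWS1 was at 56.1 ± 2.09 TPM with curcumin and CuCl2, 55.1 ± 7.27 TPM with curcumin and 56.8 ± 9.69 TPM with palmitic acid alone. The antisense gene AC010976.2, which shares 852 bases with MYO7B, averaged 0.858 TPM, with 0.857 ± 0.216 TPM with curcumin and CuCl2, 0.450 ± 0.430 TPM with curcumin and 1.27 ± 0.117 TPM with palmitic acid alone.

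PLAAT2 sits between 2 relatives of its own family. PLAAT4, 6308 bases away on the opposite strand and also known as a retinoid-induced gene, was at 3.33, 2.14 and 2.98 TPM with curcumin and CuCl2, at 2.63, 1.65 and 4.26 TPM with curcumin, and at 6.0, 5.65 and 4.25 TPM with palmitic acid alone. It overlapped palmitic acid alone in a single curcumin library, and its differences of -0.73 with curcumin and CuCl2 (adjusted p = 0.218) and -0.76 with curcumin (adjusted p = 0.189) did not pass the test. PLAAT3, 9812 bases away on the same strand and the most abundant of the family here, was at 271 ± 30.0 TPM with curcumin and CuCl2, 260 ± 26.1 TPM with curcumin and 298 ± 58.5 TPM with palmitic acid alone. Its differences were -0.13 with curcumin and CuCl2 and -0.19 with curcumin, so that of the 3 family members side by side PLAAT2 had the most negative estimate and PLAAT3 the one nearest 0. Whether the family members differ from each other was not tested.

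NEURL1 is followed 1475 bases on by SH3PXD2A, an invadopodium scaffold gene on the opposite strand, at 7.89 ± 0.537 TPM with curcumin and CuCl2, 8.51 ± 1.87 TPM with curcumin and 12.4 ± 2.71 TPM with palmitic acid alone (adjusted p = 0.186 with curcumin and CuCl2 and 0.258 with curcumin). CALHM2 on its other side differed by -0.24 with curcumin and CuCl2 and -0.30 with curcumin. The overlapping genes NEURL1-AS1 and AL121929.1 averaged 0.0311 TPM and 0 TPM. The nearest genes to MIR503HG at 1 TPM or more were HPRT1, which differed by 0.09 with curcumin and CuCl2 and 0.06 with curcumin, and PABIR2, which differed by 0.16 with curcumin and CuCl2 and 0.28 with curcumin, without passing the test.

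**Figure D3:**
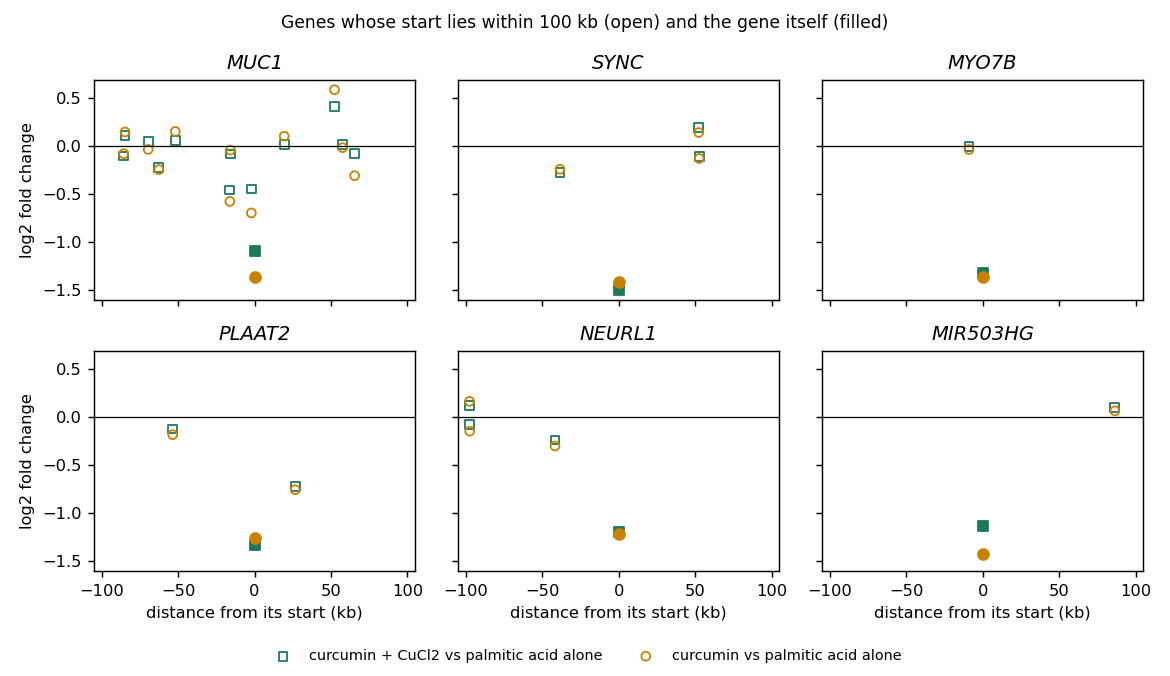
Log2 fold change of TPM + 1 against palmitic acid alone of the genes whose start lies within 100 kb of each of the 6 genes, by distance in kb along the direction of transcription (0 is the gene's own start); open marks are neighbours, filled marks the gene itself, squares curcumin with CuCl2 and circles curcumin. Each gene lies below all of the neighbours drawn, none of which passed the threshold. The 6 genes were chosen for low values in these comparisons, so nothing is read from their place. LIMS2 next to MYO7B, called with curcumin and CuCl2, and SH3PXD2A next to NEURL1 start outside the window and are not drawn.

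The levels of other marker lists are given here because the 6 genes were read in bulk libraries, in which fewer cells of a type and less RNA per cell cannot be told apart. The summed level of the 9 epithelial markers was 2644 to 2719 TPM with curcumin and CuCl2, 2511 to 2869 TPM with curcumin and 3318 to 3816 TPM with palmitic acid alone, so that palmitic acid alone lay above both. Of the 4 at 1 TPM or more, KRT8 fell by 0.45 with curcumin and CuCl2 (SE 0.06, adjusted p = 0.00975) and by 0.41 with curcumin (SE 0.06, adjusted p = 0.0150), and KRT18 fell by 0.41 with curcumin (SE 0.08, adjusted p = 0.0298). With median-of-ratios scaling of the libraries these keratins kept their direction and lost their call, at adjusted p values for KRT8 of 0.129 with curcumin and CuCl2 and 0.144 with curcumin and for KRT18 of 0.210 with curcumin, and KRT18 also lost it without any single library other than replicate 3 of palmitic acid alone. KRT8 lost its call with curcumin without replicate 2 of palmitic acid alone (0.0523) or replicate 3 of curcumin (0.0729), and with CuCl2 without any replicate of curcumin with CuCl2 (0.0582 to 0.0682). KRT18 with curcumin and CuCl2 was not called (-0.37, adjusted p = 0.0513). KRT7 was not called either, at -0.34 with curcumin and CuCl2 (adjusted p = 0.108) and -0.27 with curcumin (adjusted p = 0.186). CLDN7 was instead higher in mean, at 3.82 TPM with curcumin and CuCl2, 4.45 TPM with curcumin and 2.78 TPM with palmitic acid alone. Its differences of 0.28 with curcumin and CuCl2 and 0.54 with curcumin did not pass the test.

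Fibroblast markers summed to 11.5 to 15.2 TPM with curcumin and CuCl2, 14.1 to 18.5 TPM with curcumin and 12.2 to 17.5 TPM with palmitic acid alone; PDGFRA was at 0 in every library, and 8 of 10 averaged under 1 TPM. FAP, a membrane protease, fell by 0.95 with curcumin and CuCl2 (SE 0.17, adjusted p = 0.0274). FAP kept that call only without replicate 3 of palmitic acid alone or replicate 2 or 3 of curcumin, within adjusted p values of 0.0227 to 0.122. Its means were low, at 0.893 TPM with curcumin and CuCl2, 1.37 TPM with curcumin and 2.67 TPM with palmitic acid alone. With curcumin its difference of -0.64 was not called (adjusted p = 0.0961). COL1A1, the other fibroblast marker at 1 TPM or more, made up most of the sum. It differed by 0.05 with curcumin and CuCl2 and by 0.34 with curcumin, opposite in sign to FAP and without a call. Endothelial markers summed to 2.06 to 2.52 TPM with curcumin and CuCl2, 1.82 to 2.83 TPM with curcumin and 3.38 to 3.53 TPM with palmitic acid alone, with 8 of 9 under 1 TPM and KDR and EMCN at 0. Leukocyte markers summed to 9.02 to 10.5 TPM with curcumin and CuCl2, 9.71 to 12.2 TPM with curcumin and 9.52 to 12.4 TPM with palmitic acid alone, with 8 of 11 under 1 TPM and CD3E, MS4A1, CD163 and CLEC4F at 0. The epithelial sum was almost all KRT7, KRT8 and KRT18, so it does not stand for its whole list. Most of the endothelial sum was ESAM, the only marker of that list at 1 TPM or more. ESAM differed by -0.40 with curcumin and CuCl2 (adjusted p = 0.290) and -0.32 with curcumin (adjusted p = 0.412), without a call. Both sums were highest with palmitic acid alone, as were the 6 genes, and the part of cell types in these differences was not tested.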

How the data were processed

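Messenger RNA was sequenced from 9 libraries, 3 per group, prepared from polyadenylated RNA by a strand-keeping kit, per the labels' protocols. The values are TPM that the authors deposited in a table of 62703 genes. The submitters' processing notes name HISAT2 2.1.0, RSEM 1.3.3 and the build GRCh38.p13, without roles; the annotation release is not given in the sources used here. TPM keeps no depth, so the reads behind each value are unknown and no counting interval is given.

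Sample titles gave the groups and the replicate numbers. The labels do not say that replicates were separate cultures, so p-values measure only how these libraries vary, which could be technical variation. The scale was log2(TPM + 1). The 13443 genes averaging 1 TPM or more, which held 99.7% of TPM, were fitted together with limma 3.58.1 (R 4.3.3) with a variance trend, all 9 libraries entering, and tested two-sided, with Benjamini-Hochberg adjustment over all of them and a threshold of 0.05. "Called" means past that threshold.

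The 6 genes and all lists were chosen with earlier results of these data known. Named beside the 6 are every called gene of a list, the 2 of a list with the largest difference in a comparison (of these, a part is printed), the 3 most alike genes, and the nearest and overlapping genes; the other genes named were chosen for their role after their values were seen. Locations are from GENCODE 29, which held 13048 of the genes kept, and promoter and microRNA sequences from RefSeq on GRCh38.p14. Data were simulated with 13443 genes in 10 data sets, with 200 changed genes in each. For curcumin against palmitic acid alone the test recovered 80.0% of 2-fold and 98.7% of 4-fold changes. For curcumin with CuCl2 against curcumin, simulated the same way, it recovered 83.0% of 2-fold and 98.5% of 4-fold changes. These rates pool the changed genes of the simulation and are not rates for the 6 genes. Whether they hold for genes as low as MIR503HG, where whole libraries shift together, or where calls depend on single libraries, was not tested. Within palmitic acid alone the median-of-ratios factors of the libraries ranged from 0.909 to 1.10. Calls with curcumin against palmitic acid alone numbered 264, and 54 to 619 when single libraries were left out. The rates therefore cannot be read as the share of true changes that the test would find in these libraries. Alternatives were 19: another pseudocount, filter, scaling, set of genes or libraries, a replicate block, a mitochondrial covariate, no variance trend, and leaving out each library. Figures used matplotlib 3.10.9 in Python 3.11.15.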

Additional observations from a re-analysis of the deposited data

How the results depend on the processing

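The differences of the 6 genes from palmitic acid alone were negative in all 224 values recomputed under the 19 alternatives. They moved by more than the spread between replicates only with a pseudocount of 0.1 (5 of 12) or 5 (10 of 12); a minimum mean of 5 TPM removes MYO7B and MIR503HG. Between the curcumin groups the sign turned without 1 library for SYNC, -0.30 to 0.061 (positive without replicate 2 of curcumin with CuCl2), MYO7B, -0.049 to 0.16 (negative without that library, and -0.010 without replicate 3 of curcumin) and NEURL1, -0.021 to 0.087 (negative without replicate 3 of curcumin), none of them called; the cause was not tested.

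Counts of all genes called moved more. With curcumin against palmitic acid alone, 264 genes were called, against 104 with no filter, 35 with only those 2 groups fitted, 130 with no variance trend, 1505 with the mitochondrial share as covariate, and 54 to 619 with 1 library left out. The lowest count came without replicate 3 of curcumin and the highest without replicate 3 of palmitic acid alone. With curcumin and CuCl2 against palmitic acid alone, 194 were called, against 114 with no filter, 65 with 2 groups, 1436 with the covariate and 46 to 527 with 1 library left out, again highest without replicate 3 of palmitic acid alone. Between the curcumin groups the count was 0, against 1 with a pseudocount of 5, 3 with no filter, 3 with 2 groups and 0 to 4 with 1 library left out. EPS8L2 was called in 13 of 19 alternatives with CuCl2 and 8 of 19 with curcumin, GDE1 in 4 of 19 with curcumin and LIMS2 in 7 of 18 with CuCl2.

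Libraries with the same replicate number did not deviate together (correlations of -0.27 to 0.25 over 9 pairs, against -0.38 to 0.26 over 18 pairs with different numbers). With a replicate block, 177 genes were called with curcumin against palmitic acid alone.

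The read depth is unknown, and values near 1 TPM, such as MIR503HG and MYO7B after curcumin, are the least certain.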
